A study of Macaca mulatta with 11 samples.

Results

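Sharp steps in DNA methylation between neighbouring CpG positions were collected from the prefrontal cortex of 11 rhesus macaques. A CpG position is a cytosine followed by guanine, and its methylation level is the percentage of reads that called it methylated. The level pooled over the 11 animals was the sum of methylated reads divided by the sum of all reads. A boundary pair was a pair of successive listed positions 2 to 100 bp apart, with a pooled level under 25% at one position and over 75% at the other. Pairs were dropped where either position had an animal under 20% and another animal over 80%, since such a position reads like a sequence variant. Of 2674579 successive pairs in that distance range, 9853 met the level rule, 1328 of them were dropped and 8525 remained, or 319 per 100000 pairs.

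In mammals most CpG positions of the genome are methylated, while CpG-rich stretches at many gene starts, the CpG islands, are kept unmethylated. Methyl groups are written by DNA methyltransferases and removed through oxidation by TET enzymes, and the zones where a low stretch meets its methylated surroundings are known as shores. Neighbouring CpG positions usually carry similar levels because these enzymes act on stretches of DNA. Bisulfite reads cannot tell an unmethylated cytosine from a thymine of a sequence variant, and genotypes were not analysed here.

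All 11 samples were genomic DNA of prefrontal cortex area 46, the dorsolateral area, from animals that had not yet drunk ethanol. The labels form 2 groups, with 2 animals of cohort 10 and 9 animals of cohort 14, and no genotype, strain or treatment was given beyond that. Each label carries an age and a later ethanol value for 6 months, called intake here, both without a unit. The labels do not state how the animals were kept, and bulk cortex mixes neurons and glia, so a level may be an average over cell types. Intake ran from 1.69 to 4.31 (median 2.98). Age ran from 5.02 to 5.44, and both animals of cohort 10 (5.02 and 5.08) were younger than every animal of cohort 14, so age and cohort cannot be told apart. The question behind the design, from the series title, is whether methylation before drinking relates to later drinking.

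The tables listed 3115109 positions, of which 45.9% had a pooled level under 25%, 19% from 25% to 75% and 35.1% over 75%. Total counts summed over all listed positions ran from 479979855 to 934657900 per library. A read covering several positions counts at each of them, so these sums are not numbers of sequenced reads. The lowest total at any position in an animal was 12. The genome build of the coordinates is not given in the sources used here, and no gene annotation of that build was used, so positions are given without genes and without sequence. In animals 3, 6, 7 and 8 of cohort 14, the unmethylated count was at its minimum of 1 in 6.32% to 7.19% of positions, against 3.38% to 4.70% in the other 7 animals. Their part in the results was not tested beyond the values given below without them.

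Most of the 8525 pairs did not mark a change that went on. Only 666 pairs (7.81%) were lasting boundaries, where the mean level of 3 successive positions on each side, the pair's own position included and all within 500 bp, differed by more than 50 percentage points in the pair's direction. They were divided nearly evenly by orientation, with 338 running from low to high along the chromosome and 328 from high to low. A further 4071 pairs (47.8%) came from single odd positions, where 1 position stood apart and the 2 positions beyond it had a mean nearer to its neighbour. These 4071 pairs belonged to 2897 distinct odd positions, 2690 low ones and 207 high ones. Only 1148 of the low ones and 26 of the high ones were the odd member of such a pair on both sides. The others were called odd from a pair on 1 side. Another 588 pairs were mixed, and 3200 (37.5%) could not be classified because fewer than 3 positions lay within reach on a side. The classes use the same levels as the selection, so these counts and levels are descriptions.

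At lasting boundaries the mean pooled level was 13.6% on the low side and 85.4% on the high side. The median pooled gap was 71.4 points, with a middle range from 64.0 to 79.4 points. Part of this contrast was in the pair itself: at the next position out, the mean was 21.2% on the low side and 79.1% on the high side. Further out, means and medians parted on both sides. At the fourth position the mean was 29.7% with a median of 15.4% on the low side and 75.5% with a median of 82.9% on the high side. At the tenth position the low-side mean was 20.6% with a median of 4.36%, and the high-side mean 75.2% with a median of 84.8%. For 430 boundaries, the fourth to sixth positions, which the rule did not use, were listed on both sides. There the median gap was 54.6 points, 235 boundaries (54.7%) still had a gap over 50 points, 103 had one under 25 points and in 43 the order was reversed.

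**Figure D1:**
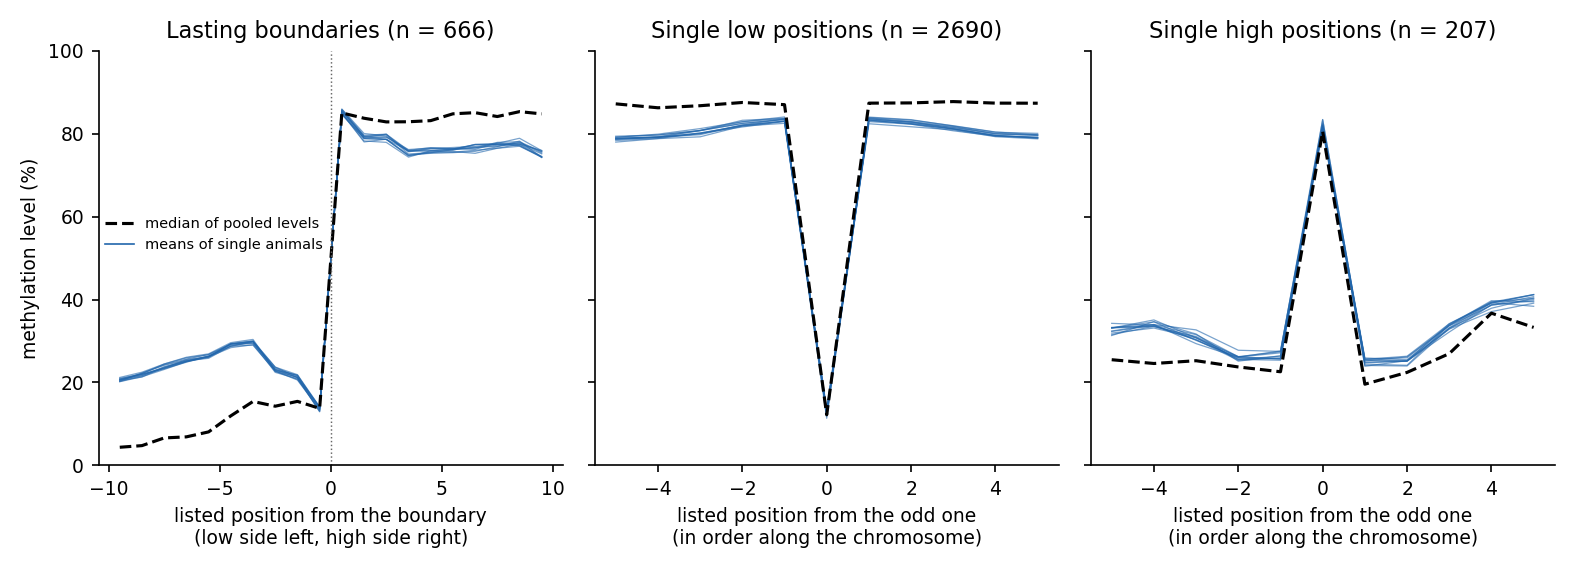
Methylation level (%) by listed position around lasting boundaries, single low positions and single high positions; thin lines are the means of single animals and the dashed line is the median of the pooled levels. The lines of the 11 animals nearly coincide, and the step at lasting boundaries, from 13.6% to 85.4% in the pooled mean, is followed on both sides by means that move toward the middle by the fourth position.

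The low side was the longer one as listed. Counted until a position crossed 50%, a neighbour lay over 500 bp away or the list ended, the low side held a median of 14.5 positions over 401 bp, and the high side 5 positions over 156.5 bp. A crossing of 50% ended 438 low sides (65.8%) but only 298 high sides (44.7%); the others stopped at a gap in the listed positions or the end of the list, so their lengths are lower limits. The longest low side held 359 positions, and the longest of all in base pairs spanned 5052 bp. Of the 666 boundaries, 365 had 10 or more low positions, 147 had 3 to 9 and 154 had only 1 or 2. In those 154, the mean of 3 positions had kept the gap although at most 2 successive positions were low, so they resemble the single low positions described below. Beyond the third position, 390 of 620 low sides (62.9%) averaged under 25% and 79 (12.7%) over 75%, while 278 of 457 high sides (60.8%) averaged over 75% and 5 under 25%.

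Listed CpG positions were denser on the low side. No genome sequence was used, so CpG positions missing from the list were not counted. Whether the listing itself was less complete on the high side was not tested. Within 250 bp, the low side of lasting boundaries had a median of 8 listed positions and the high side 5, and the low side was denser at 433 boundaries, the high side at 187. Over all successive pairs, both sides had a median of 10 positions and neither was denser on balance (1252561 pairs against 1256803). The contrast was widest at boundaries with a long low side: with 10 or more low positions the medians were 10 and 5 and the low side was denser at 276 against 68. With 1 or 2 low positions the medians were 6 and 5, and the low side was denser at 72 against 68. The classes and the density count some of the same listed positions, so part of this gradient is built into the classes.

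Lasting boundaries lay mostly between positions far apart within the allowed range. Their median distance was 56 bp, against 13 bp over all pairs and 23 bp for single odd pairs. Per 100000 pairs of a given distance, lasting boundaries numbered 1.11 at 2 bp, 3.33 at 3 to 10 bp, 11.7 at 11 to 25 bp, 35.9 at 26 to 50 bp and 130 at 51 to 100 bp. Single odd pairs rose less steeply, from 44.2 at 2 bp to 314 at 51 to 100 bp. The mean step between neighbours also grew with distance over all pairs, from 3.40 points at 2 bp to 11.3 points at 51 to 100 bp. At 2 bp, 80 odd pairs were found beside 2 lasting boundaries.

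**Figure D2:**
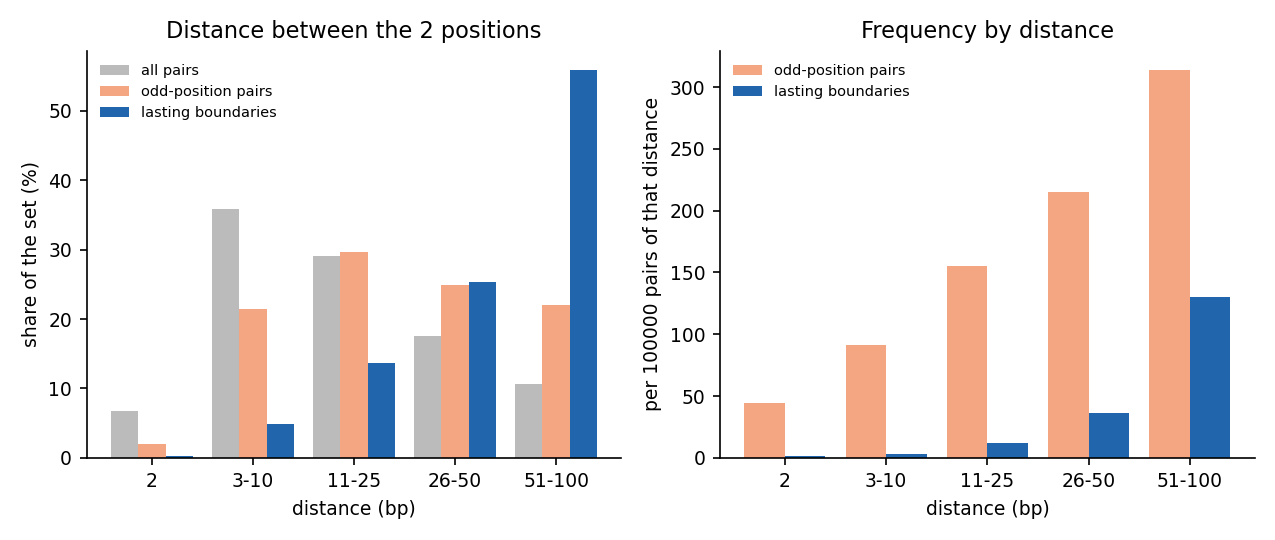
Share of each set (%) by distance between the 2 positions (left) and number per 100000 pairs of that distance (right). Lasting boundaries concentrate at 51 to 100 bp, which holds 55.9% of them and 10.7% of all pairs.

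Every one of the 20 listed chromosomes held lasting boundaries. Their frequency ran from 16.4 per 100000 pairs on chromosome 6 (22 boundaries) to 38.6 on chromosome 10 (55 boundaries), and chromosome 1 held the most, 61. Successive boundaries lay a median of 1.46e+06 bp apart, 28 of 646 lay within 10000 bp of the one before and 19 within 1000 bp. No window of 10000 bp held more than 2 of them. Most boundaries thus lay far from the one before. Whether the close ones were more frequent than under an even scatter was not tested.

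Successive boundaries of opposite direction enclosed 12 low runs with every position between them under 50%, and no high run. The longest was chr3:79528227-79528732, a low stretch of 506 bp with 22 positions. Its mean level over the 11 animals ran from 4.02% to 10.8% with a median of 7.69%, and the pooled level averaged 78.3% over the 3 positions before it and 87.1% over the 3 positions after it. It is a short island of low methylation with a step at both ends in these animals. The next longest were chr19:10064295-10064382 of 88 bp and chr1:8072440-8072481 of 42 bp, each with only 2 low positions. Their levels split the animals, from 2.15% to 45% (median 6.03%) and from 0.310% to 44.9% (median 1.38%). The shortest runs were 2 bp long and held 2 positions 1 bp apart, possibly the opposite strands of the same CpG: chr3:147846343-147846344, chr9:55749728-55749729 and chr14:84986694-84986695. In each of these the lowest animal was at 0.954% to 1.39% and the highest at 39.7% to 42.3%. Such strand partners lay within the 3 positions beside 49 of the 666 boundaries (7.36%).

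The steepest boundaries were those with the largest gap in the animal where the gap was smallest. At chr4:134147186-134147246, from low to high over 60 bp, the low side ran from 0.328% to 9.73% over the animals (median 3.0%) and the high side from 92.3% to 99.7% (median 96.8%). No animal had a gap under 87.1 points there, and the low side held 60 successive low positions. At chr15:14934634-14934682, from high to low over 48 bp, the high side ran from 89.9% to 99.3% (median 98.4%) and the low side from 0.376% to 7.35% (median 1.69%). Here the low side held 42 positions and the smallest gap was 88.2 points. Both are edges of long low stretches. That the 2 sides did not overlap in any animal is fixed by the choice.

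The other 4 steepest boundaries had only 1 or 2 low positions. At chr10:8583005-8583018 the low position ran from 0.483% to 1.18% (median 0.699%) and the high one from 92.2% to 99.4% (median 96.6%), 13 bp apart. Its smallest gap of 91.1 points was the largest of all 666 boundaries, yet the 3 low-side positions averaged 43.2%. At chr3:35297790-35297829 the low position ran from 2.70% to 8.33% (median 6.25%) and the high one from 92.2% to 99.3% (median 95.5%). At chr2:105200347-105200360 the values were 2.0% to 6.0% (median 3.03%) and 89.1% to 92.4% (median 91.1%). At chr2:94602529-94602541 the low side ran from 1.54% to 5.26% (median 3.23%) and the high side from 88.9% to 96.5% (median 94.2%). All 11 animals had the same step at each of these places and the sides did not overlap, which is fixed by the choice on the smallest gap. The 2 on chromosome 2 also had the smallest spread of the gap, an SD of 1.86 and 2.42 points (n = 11), followed by chr13:82369869-82369967 with 2.58 points and gaps from 72.7 to 81.8 points (median 76.8). The lowest read count in an animal was 85 at the place on chromosome 10, 12 on chromosome 3, and 22 and 19 at the 2 on chromosome 2. In the same order, the median over both positions and all animals was 158, 107, 495 and 132 reads. At the last 3 places the lowest count lay on the low position, so its levels rest on few reads. The lowest methylated count in the data was 1, which sets a floor under each level. Low levels at these 4 places lay at or near that floor, and this limits their spread over animals.

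**Figure D3:**
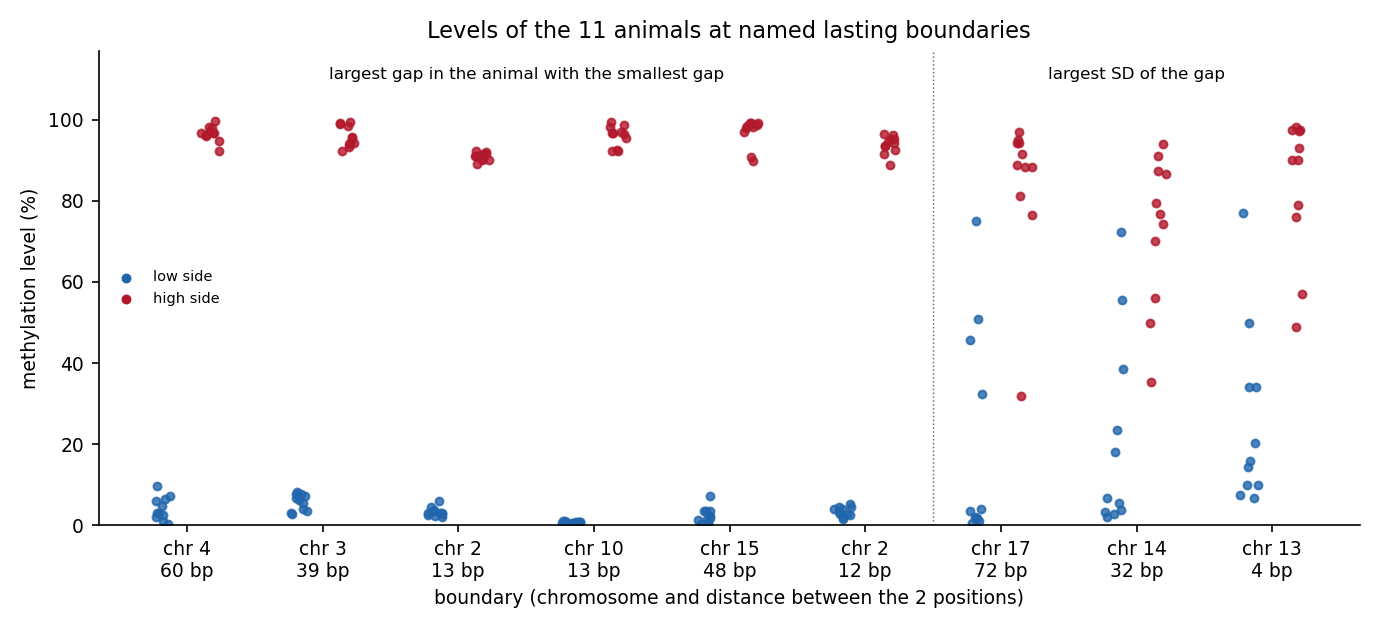
Methylation level (%) of each of the 11 animals at the low position (blue) and the high position (red) of 9 lasting boundaries, named by chromosome and distance. The 6 on the left have a gap of at least 84.3 points in every animal, and in the 3 on the right single animals cross over.

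The boundaries closest in base pairs were chr3:147846341-147846343 and chr20:73917148-73917150 at 2 bp and chr20:564130-564133 at 3 bp. At chr20:73917148-73917150 the high position ran from 75% to 99.4% (median 94.1%) and the low one from 0.535% to 45.1% (median 2.0%). At chr3:147846341-147846343 the high position ran from 66.7% to 99.3% (median 86.0%) and the low one from 1.64% to 48.3% (median 2.47%). The sides did not overlap at either place, although the highest animal on the low side was far above the median one. At chr20:564130-564133 the low position ran from 1.33% to 12.9% (median 2.78%) and the high one from 49.1% to 98.0% (median 84.6%).

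Single low positions made up 92.9% of the odd positions. Their median pooled level was 12.2%, and their direct neighbours had mean levels of 83.4% and 83.5%. They varied between animals more than other positions of their level: the mean SD over the 11 animals was 13.3 points, against 6.45 points for all positions weighted to the same levels. The low side of lasting boundaries had 7.99 against 7.02 points. In 1716 of the 2690 (63.8%) at least 1 animal was under 10% while another was between 30% and 70%, a split seen at 25.3% of all positions of the same level and at 34.8% of low sides of lasting boundaries. At the median single low position the lowest animal was at 1.08% and the highest at 43.4%. In 473 positions every animal was under 10%, and 118 positions had the lowest methylated count in every library.

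Reads divided the single low positions into unlike kinds. Of 2225 with both neighbours within 100 bp, 520 (23.4%) had under 0.5 of the mean reads of their neighbours, a shortfall seen at 1.59% of all positions and at 2.21% of single high ones. Those 520 had a median read ratio of 0.131, a median level of 3.64% and a median SD between animals of 2.13 points, and 61.0% of them were under 10% in every animal. The 1445 with a read ratio of 0.8 to 1.2 had a median level of 15.2% and a median SD of 17.7 points, and 4.01% of them were under 10% in every animal. The sparse positions were thus more often low in every animal than the normally covered ones. Whether sequence variants or the mapping play a part was not tested.

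**Figure D4:**
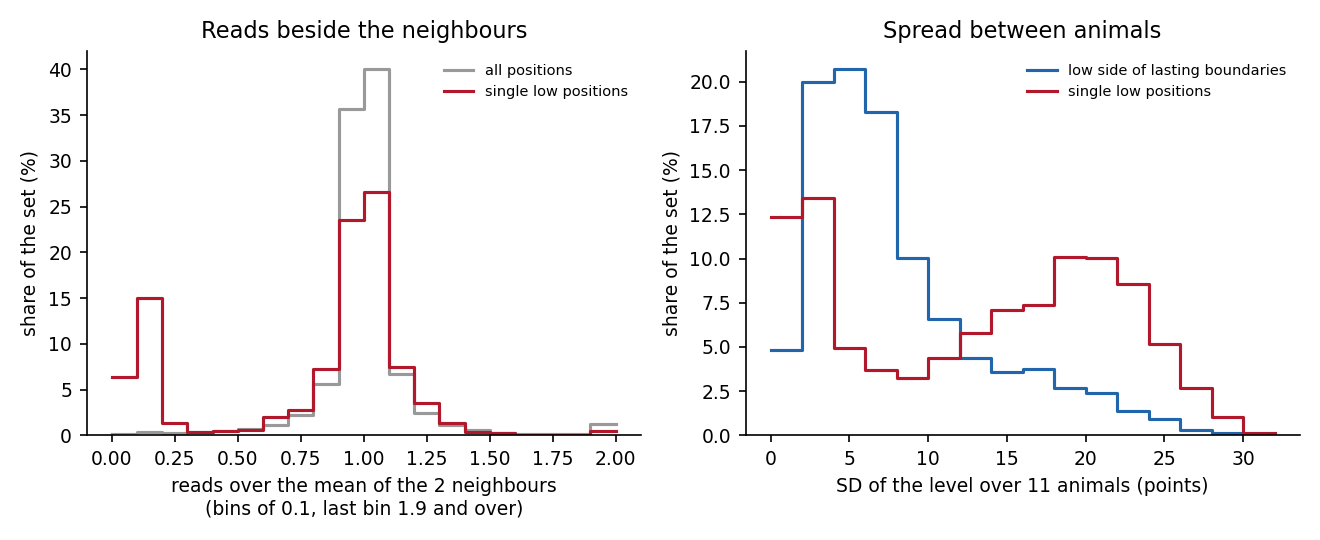
Reads at a position over the mean of its neighbours (left, share of each set in %) and SD of the level over the 11 animals in points (right, share of each set in %). Single low positions form a second group at a ratio under 0.5, which holds 23.4% of them, and spread further between animals than the low side of lasting boundaries.

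The single low positions named here have the largest gap to both neighbours in the animal where it is smallest, a choice that leaves out positions differing between animals. At chr8:141667716 the level ran from 0.221% to 0.680% (median 0.299%) between neighbours 25 and 14 bp away with medians of 98.9% and 97.3%, at 0.960 of their reads. At chr19:57620284 it ran from 0.870% to 7.32% (median 1.30%) beside medians of 98.0% and 98.7%, but at only 0.154 of the neighbours' reads. At chr1:181696321 it ran from 0.926% to 8.33% (median 2.05%) beside medians of 98.7% and 98.6%, at 0.936 of their reads. All 11 animals were low at the 3 positions and none came near its neighbours. Strand partners 1 bp away were listed for 21 single low positions. The median difference from the partner was 6.97 points there and 1.97 points over all 63630 such places, and it exceeded 50 points at 2 of the 21 and at 9 places in all.

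The 207 single high positions varied less between animals than the single low ones. Their median pooled level was 80.5% and their mean SD over animals 6.96 points, against 9.43 for all positions of the same levels. The strongest were chr13:35956093, with levels from 82.0% to 94.0% (median 87.5%) between neighbours at medians of 4.32% and 2.06%, and chr16:7360614, from 81.3% to 92.9% (median 86.7%) between 3.95% and 9.09%. At chr1:62582472 the level ran from 77.1% to 94.3% (median 91.9%) between 3.57% and 0.685%, and this position had 2.74 times the mean reads of its neighbours. The 3 positions were chosen by the largest gap to both neighbours in the animal where it is smallest. That every animal was high there and low beside them is fixed by this choice.

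The animals shared the lasting boundaries to nearly the same degree. The mean gap over the 666 ran from 70.7 points in animal 9 to 73.0 points in animal 3 of cohort 14, with a mean of 71.7 ± 0.812 points (SD, n = 11). The mean low side ran from 12.9% to 14.1% and the mean high side from 84.6% to 85.9%. Because these animals had chosen the boundaries, each animal was also read at boundaries chosen on the other 10. There the mean gap was 70.1 ± 0.726 points (SD, n = 11), from 68.95 to 71.5. In this independent reading, 87.9% to 93.7% of boundaries had a gap over 50 points in the held-out animal, and 0.741% to 2.49% had one under 25 points. Single odd positions chosen the same way had a mean gap of 70.6 points, but 4.19% to 6.51% fell under 25 points in the held-out animal. In each of the 11 animals the share under 25 points was larger for odd positions than for lasting boundaries.

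**Figure D5:**
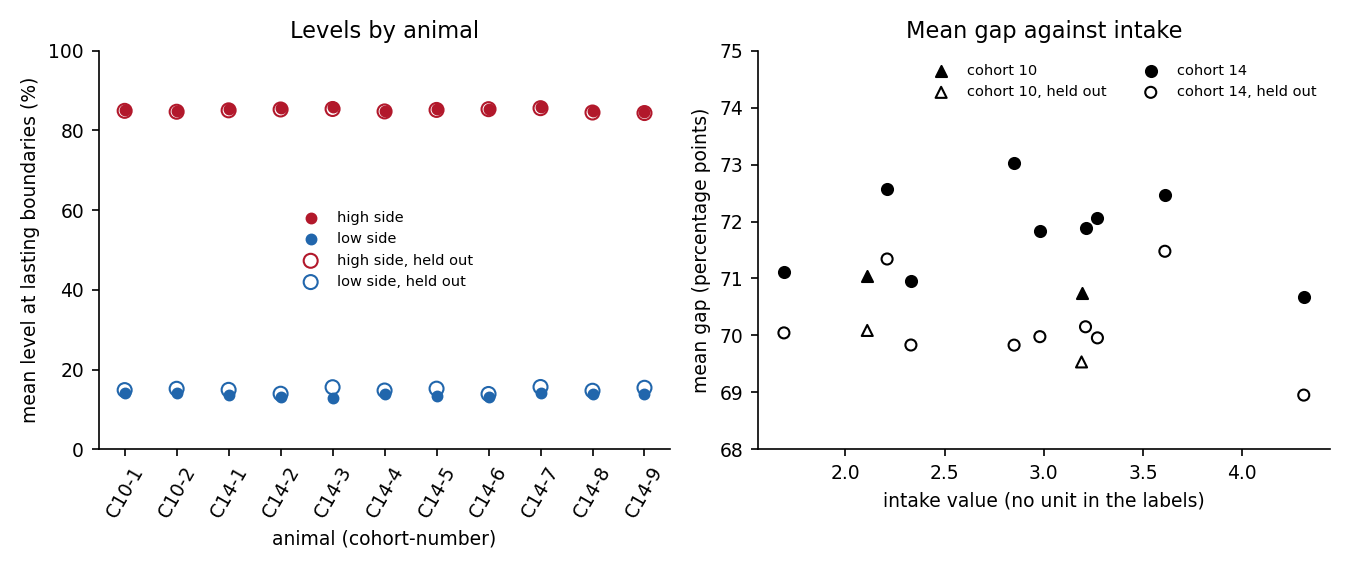
Left, mean level (%) on the high and low side of lasting boundaries in each animal, with open circles for boundaries chosen on the other 10 animals. Right, mean gap (points) against the intake value, which has no unit; the axis runs from 68 to 75 points, and the 11 animals lie between 70.7 and 73.0 points, or 68.95 and 71.5 points when held out.

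Single boundaries varied more than their mean. The gap exceeded 50 points in every animal at 383 boundaries (57.5%) and 75 points in every animal at 45. In 28 boundaries at least 1 animal had a gap under 25 points, and in 24 of these it was exactly 1 animal. The median SD of the gap over animals was 8.62 points with 10 or more low positions, 9.45 points with 3 to 9 and 12.7 points with 1 or 2. The shortest low sides also split the animals most often: 57.8% had an animal under 10% and another between 30% and 70%, against 24.9% of those with 10 or more low positions. Reads at lasting boundaries were ample in the median, with a pooled total of 2040 on the low and 2300 on the high side, against 1682 over all positions, and a median low-to-high ratio of 0.972. Single places had far fewer, down to 12 reads in an animal.

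The 3 most variable boundaries had 1 or 2 low positions and were absent or reversed in some animals. At chr17:93742406-93742478 the low side ran from 0.498% to 75% (median 3.54%) and the high side from 31.9% to 97.1% (median 88.9%). Animals 3, 4, 6 and 7 of cohort 14 were at 32.5%, 45.6%, 50.8% and 75% on the low side and the other 7 at 3.92% or less, and animal 4 had a reversed gap of -13.7 points. At chr14:87860004-87860036 the low side ran from 1.96% to 72.2% (median 6.78%) and the high side from 35.3% to 94.1% (median 76.7%), with a lowest gap of -22.2 points in animal 2 of cohort 10. At chr13:11681373-11681377 the low side ran from 6.67% to 76.9% (median 15.8%) and the high side from 49.0% to 98.3% (median 90%), with a lowest gap of -19.8 points in animal 4 of cohort 14. The sides overlapped between animals at all 3. The lowest read count in an animal was 17 at the place on chromosome 14, 13 on chromosome 13 and 86 on chromosome 17.

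Where a boundary was missing in an animal, its low side was usually raised. Of 34 cases with a gap under 25 points, 22 had the larger deviation on the low side, with a median of 56.2 points above the other animals, and 12 on the high side, with a median of -41.3 points. The 2 positions beyond the low member deviated by a median of only 5.02 points; they were more than 10 points higher in 9 of the 22 cases, more than 25 points higher in 5 and lower in 8. For the 12 high-side cases the next 2 positions deviated by a median of -3.46 points. The cases and their side were chosen by the deviation at the pair itself, so its larger size there is fixed by the choice.

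Boundaries called from a single animal's own levels were more numerous and less shared. The same distance, level and flank limits gave 1381 to 1876 lasting boundaries per animal and kept 61.0% to 71.2% of the 666. The drop of variant-like pairs compares animals and was not applied to a single animal. With such pairs kept, the pooled levels gave 686 lasting boundaries. Those shared with the 666 were 23.7% to 32.2% of an animal's own. Animals 3, 6, 7 and 8 of cohort 14, set apart above by their unmethylated counts, had 1642 to 1876 of their own lasting boundaries, and the other 7 had 1381 to 1599. They also held the largest gap of the 11 animals at 81 to 92 of the 666 boundaries each, against 35 to 59 in the others, and the smallest gap at 57 to 89 each, against 38 to 74. Their mean gaps, from 70.96 to 73.0 points, overlapped those of the other 7 animals, from 70.7 to 72.6 points. Without those 4 animals the pooled rule gave 694 lasting boundaries, of which 590 were among the 666.

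No relation between the mean gap at lasting boundaries and later intake was detectable in these 11 animals. The gap changed by 0.00151 points per unit of intake (95% confidence interval -0.809 to 0.812, least squares). Pearson's r was 0.00140 (permutation p = 0.997, adjusted over 4 relations 0.997), with Spearman's rho at -0.0636 (permutation p = 0.861, adjusted 0.861). With animals 4 and 9 of cohort 14 left out, whose intake lay farthest from the median, r was 0.238 (exact permutation p = 0.525). Within cohort 14 alone r was -0.0557 (exact permutation p = 0.887), and cohort 10 holds too few animals for a value. The sign of r thus changed with the animals included. The 6 animals with an intake below 3 had a mean gap of 71.8 ± 0.877 points (SD), and the 5 at or above 3 had 71.6 ± 0.814 points, and the ranges overlapped.

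The sides taken apart and the single odd positions gave no firmer relation. The mean high-side level had r = -0.124 (permutation p = 0.717, adjusted 0.956) with a rho of -0.118 (permutation p = 0.734, adjusted 0.861). The mean low-side level had r = -0.129 (permutation p = 0.704, adjusted 0.956) with a rho of -0.182 (permutation p = 0.596, adjusted 0.861). The mean gap at single odd positions had r = 0.279 (permutation p = 0.404, adjusted 0.956) with a rho of 0.173 (permutation p = 0.616, adjusted 0.861). Within cohort 14 the 3 values of r were -0.149, -0.0610 and 0.234 (exact permutation p = 0.699, 0.875 and 0.542). With animals 4 and 9 left out they were 0.134, -0.282 and 0.0280. The slope at odd positions was 0.31 points per unit of intake, with a 95% confidence interval from -0.497 to 1.12.

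Pair by pair, steps were compared with intake and cohort in 1 model over all 2674579 pairs, fitted with limma, a linear model with moderated variance, on the log2 odds ratio of the higher over the lower position. For intake, 0 pairs passed an adjusted p of 0.05, a background of 0%, and so 0 of the 8525 boundary pairs and 0 of the 666 lasting boundaries did. At an unadjusted p under 0.05 the background was 106111 pairs or 3.97%, with 286 boundary pairs (3.35%) and 21 lasting boundaries (3.15%). The members' shares lay a little below the background on this scale. In limma on the difference in percentage points, 0 pairs passed as well. At an unadjusted p under 0.05 that fit held 104611 of all pairs (3.91%), 476 boundary pairs (5.58%) and 40 lasting boundaries (6.01%), so there the members' shares lay above the background. The typical standard error at a lasting boundary was 0.65 on the log2 scale, or 4.04 points, per unit of intake, and even slopes more than 3 times their standard error did not pass after adjustment over all pairs.

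The lasting boundaries with the smallest p for intake did not pass, each with an adjusted p of 1 in limma. At chr3:183446849-183446902 the gap ran from 35.1 to 86.0 points (median 73.2), with a log2 slope of -2.10 ± 0.62 (SE) per unit of intake. At chr8:143140833-143140856 it ran from 34.6 to 94.0 points (median 79.96), with a slope of 2.77 ± 0.84. The largest gaps lay in animal 2 of cohort 14 at the first place and in animal 5 of cohort 14 at the second. The other 4 were chr16:55187452-55187491 and chr1:148694031-148694124, with slopes of -2.04 and -1.82, and chr14:9416987-9417016 and chr7:82502551-82502640, with slopes of 1.53 and 1.89.

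Between cohorts the mean gap was 71.8 ± 0.795 points (SD, n = 9) in cohort 14 and 71.0 and 70.7 points in the 2 animals of cohort 10. The difference of 0.953 points gave p = 0.182 in a two-sided exact permutation test, where the smallest possible p is 0.0182. Animals 4, 8 and 9 of cohort 14, at 71.1, 70.96 and 70.7 points, lay in or near the range of cohort 10. In the limma fit 0 pairs passed for cohort, a background of 0%, with 0 boundary pairs among them. At an unadjusted p under 0.05 the background was 76384 pairs or 2.86%, against 328 boundary pairs (3.85%) and 8 lasting boundaries (1.2%).

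On the percentage-point scale, limma called 126 of all pairs for cohort (0.00471%), 22 with a larger gap in cohort 14 and 104 with a smaller one. Among the 8525 boundary pairs 2 were called and among the 666 lasting boundaries 0. Both called pairs, singled out after their values were seen, had an adjusted p of 1 on the log2 scale. At chr1:168422355-168422404 the high position was at 48.7% and 35.04% in the 2 animals of cohort 10 and had a median of 96.6% over all 11, and the low position was at 1.87% or less in every animal. The gap was larger in cohort 14 by 55.2 ± 3.76 points (SE, adjusted p = 0.00388 in limma), and the cohorts did not overlap. At chr3:42503525-42503537 the low position was at 50.6% and 43.6% in cohort 10 and had a median of 0.508% over all 11, with 30.9% in animal 9 of cohort 14. The gap was larger in cohort 14 by 51.5 ± 5.19 points (SE, adjusted p = 0.0253 in limma). Neither is a lasting boundary, and with 2 animals in cohort 10 a difference between cohorts, ages or single animals cannot be told apart.

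The limits of 25% and 75% cut through a continuum. Just inside lay both pairs around chr19:39959413, where the pooled level was 24.99% and the animals ran from 1.08% to 56.7% (median 7.36%), next to 87.7% and 92.8%. Just outside lay chr8:22263863-22263882, with a pooled low side of 25.01%, animals from 0.260% to 60.1% (median 7.75%) and a pooled high side of 95.2%, and chr1:64424434-64424470, with a pooled high side of 74.99% and a low side of 17.2%. In the first 3 pairs the low position divided the animals, and in the fourth the animals ran from 65.0% to 87.2% (median 72.7%) on its high side.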

How the data were processed

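DNA methylation was measured in 11 samples of prefrontal cortex area 46, 1 per animal. Per the labels' protocols, a Qiagen AllPrep kit gave the DNA and SureSelect XT Human Methyl-Seq, a capture kit with probes of human design, the bisulfite libraries. FastQC and Bismark are named in the submitters' processing notes, without versions or settings. The authors deposited methylated and total read counts per position as whole numbers, not normalized. The lowest methylated and the lowest unmethylated count were 1 and the lowest total 12, which is what adding 1 to each would leave; neither the labels nor the headers mention this, and the values were used as deposited. The tables held 11 columns matching a library and 5 further columns that matched none and were not used. Every position passed a minimum of 10 reads in all animals.

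Boundaries were found in Python 3.11.15 with the rule in the report and tested on simulated data. The members and lists were chosen with earlier results of these data known. Steps were tested with limma 3.58.1 in R 4.3.3 on log2 odds ratios against intake and cohort, with Benjamini-Hochberg adjustment at 0.05 over all 2674579 pairs. Relations over animals used 100000 permutations, or all arrangements below 10 animals. Named places were the 6 lasting boundaries steepest in every animal (3 per direction), the shortest and longest runs between opposite boundaries, the 3 low and 3 high single odd positions of largest gap, the 3 most and least variable boundaries, the 3 of smallest p for intake per direction, and those just inside and outside the limits, with none within 10000 bp of another of its kind. The 3 boundaries of shortest distance and the 2 called for cohort were added after their values were seen. Other distances, limits, coverage, flank lengths, scales and left-out animals were tried. Distance to gene starts and sequence were not used here, for lack of a reference of the files' build. Reads without molecular identifiers are not independent molecules.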

Additional observations from a re-analysis of the deposited data

Results flagged for a closer look

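In cohort 14, 40 sets of 9 values were examined for a single animal far from the others, and 2 stood apart; chance gives about 1 in 20. At the pair chr1:168422355-168422404, animal 3 had a gap of 87.2 points, below the other 8 animals at 93.0 to 98.2 points. At chr3:42503525-42503537, animal 9 had a gap of 68.4 points, below the other 8 at 88.5 to 98.7 points. Both pairs had been singled out after their values were seen.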

How the results depend on the processing

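The numbers of boundaries depended on the rule. Lasting boundaries numbered 294 with a limit of 50 bp, 377 with limits of 20% and 80%, 400 with at least 50 reads in every animal, 339 when the 3 positions beyond the pair's own were averaged (326 of them among the 666) and 341 with 5 positions on each side (291 among the 666); other settings gave 533 to 712. Boundary pairs numbered 5287 with limits of 20% and 80% and 4696 with at least 50 reads, and single odd positions 1888 and 1308. Leaving out each animal gave 8681 to 8818 pairs, 650 to 694 lasting boundaries and 2934 to 3011 odd positions. Correlations with intake at lasting boundaries had no stable sign. For the mean gap, r was -0.0557 in cohort 14 alone, -0.0617 with 1 taken from every methylated and unmethylated count, -0.267 with members chosen on the other 10 animals, -0.258 for boundaries with 10 or more low positions, -0.250 without animals 3, 6, 7 and 8 of cohort 14, and -0.142 to 0.358 when each animal was left out. For the high side it was 0.00129 over pooled reads, 0.138 with at least 50 reads, 0.134 without the 2 animals of farthest intake and -0.311 to 0.316 with each animal left out. For the low side it was 0.0879 with at least 50 reads, 0.283 with members chosen on the other 10, 0.261 with 10 or more low positions, 0.0766 without the 4 animals and -0.331 to 0.0264 with each animal left out. For odd positions r stayed positive, between 0.157 and 0.473 with each animal left out and between 0.0280 and 0.513 under the other settings. No p passed its threshold in any of these. The cohort difference in the mean gap stayed between 0.363 and 1.10 points. Steps called for intake numbered 0 under every alternative run. Steps called for cohort numbered 126 in percentage points, 1 with at least 50 reads, and 0 to 1 with each animal left out (1 without animal 8 of cohort 14); where 1 animal of cohort 10 was left out, the remaining one was assumed to vary like the others. The settings for boundaries with 10 or more low positions and without the 4 animals were chosen after seeing the data. The causes of these changes were not tested. No paired analysis was possible because no label gives an animal a counterpart in the other cohort.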
